A study of Mus musculus with 6 samples.

Results

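Glucose uptake, glycolysis, the pentose phosphate pathway and lactate transport were followed as 1 set of 39 genes in adipocytes given a hairpin against Zc3h10. The set was chosen by function, and a gene was measured where a probe set of the array carried its symbol and no other, with the brightest such probe set standing for it. This gave values for 33 of the 39 genes, among 21996 named genes in all, and Gpi1, Aldoa, Pfkfb1, Eno1, G6pdx and Tkt were not analysed here. The cells were C3H10T1/2, an established mouse stem-like line that forms fat cells under an adipogenic cocktail, grown in high-glucose medium and labelled as adipocytes at 9 days of differentiation. Every culture was exposed for 72 h to an adenovirus at a multiplicity of infection of 50. The hairpin, driven by a U6 promoter, had a scrambled sequence in 3 cultures (scramble) and was directed against Zc3h10 in the 3 others (Zc3h10 shRNA). Zc3h10 encodes a CCCH zinc finger RNA-binding protein, and 1 hairpin and 1 cell line were used. RNA of each culture was read on 1 Affymetrix Mouse Gene ST array, whose values are probe set intensities.

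Glycolysis splits glucose into pyruvate. Transporters let glucose in, hexokinase traps it as a phosphate, phosphofructokinase commits it, and the later enzymes harvest ATP and NADH. Pyruvate then enters mitochondria or is reduced to lactate, which leaves through monocarboxylate transporters. In fat cells the same route feeds triglyceride: glycerol phosphate is drawn off at the triose step, and the pentose phosphate branch makes NADPH for fatty acid synthesis. Most steps have several isoenzymes, and adipocytes are known for the insulin-responsive transporter Slc2a4 and for hexokinase Hk2 in this role.

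Array medians lay between 15.6 and 16.1 intensity units, and log2 values correlated across probe sets at 0.992 to 0.994 within a group and at 0.985 to 0.988 between groups. Zc3h10 itself averaged 33.4 ± 6.77 in the scramble and 26.1 ± 3.72 in the shRNA cultures (SD, n = 3 each), a change of −0.34 ± 0.17 that did not pass (limma, adjusted p = 0.301), and the groups overlapped. The targeted transcript thus did not separate the groups at this precision. Its values on shRNA arrays, 25.2, 30.2 and 22.9, lay not far above the dim limit of 20.5 given below. Each change is a difference of mean log2 intensity, shRNA less scramble, ± the limma standard error, and the threshold was an adjusted p under 0.05 over all 33079 probe sets. The dim limit used here, 20.5 intensity units, is a high percentile of the group means of 1379 olfactory and vomeronasal receptor genes. Of the 14 measured adipocyte markers 13 fell, and their summed intensity was 25427 to 28424 on scramble and 13698 to 14718 on shRNA arrays. In the shRNA cultures 8 of 9 cell cycle markers rose, with sums of 656 to 809 on scramble and 1098 to 1251 on shRNA arrays. Of 11 measured fibroblast markers 3 rose and 1 fell, and their sums overlapped (11135 to 12991 and 12656 to 12980). Under the dim limit in both groups were 6 of 8 macrophage, 8 of 8 endothelial and 5 of 8 muscle markers. The part of these shifts in the results that follow was not tested, and fewer adipocytes and less RNA per adipocyte cannot be told apart in such bulk samples.

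Of the 33 measured genes, 14 fell and 1, Pck2, rose. Among all named genes 12.1% were called, 6.6% lower and 5.51% higher. Among the 11797 above the dim limit in at least 1 group 21.6% were called, 11.9% lower and 9.74% higher. The median change of the set was −0.27 against 0.013 for all named genes. The 28 members above the dim limit held all 15 calls and had a median of −0.47, given as a description only since the limit favours genes high in 1 group. The groups did not overlap for 19 members that were lower and 3 that were higher in the shRNA cultures, where 15.2% and 16.7% of all named genes, and 24.4% and 25.5% of those above the dim limit, did so. The falls were spread over the route, from glucose entry to lactate export and both side branches, and at several steps 1 isoenzyme fell while a partner did not pass. With 1 array left out in turn, 11 to 14 of the members fell and Pck2 rose each time.

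**Figure D1:**
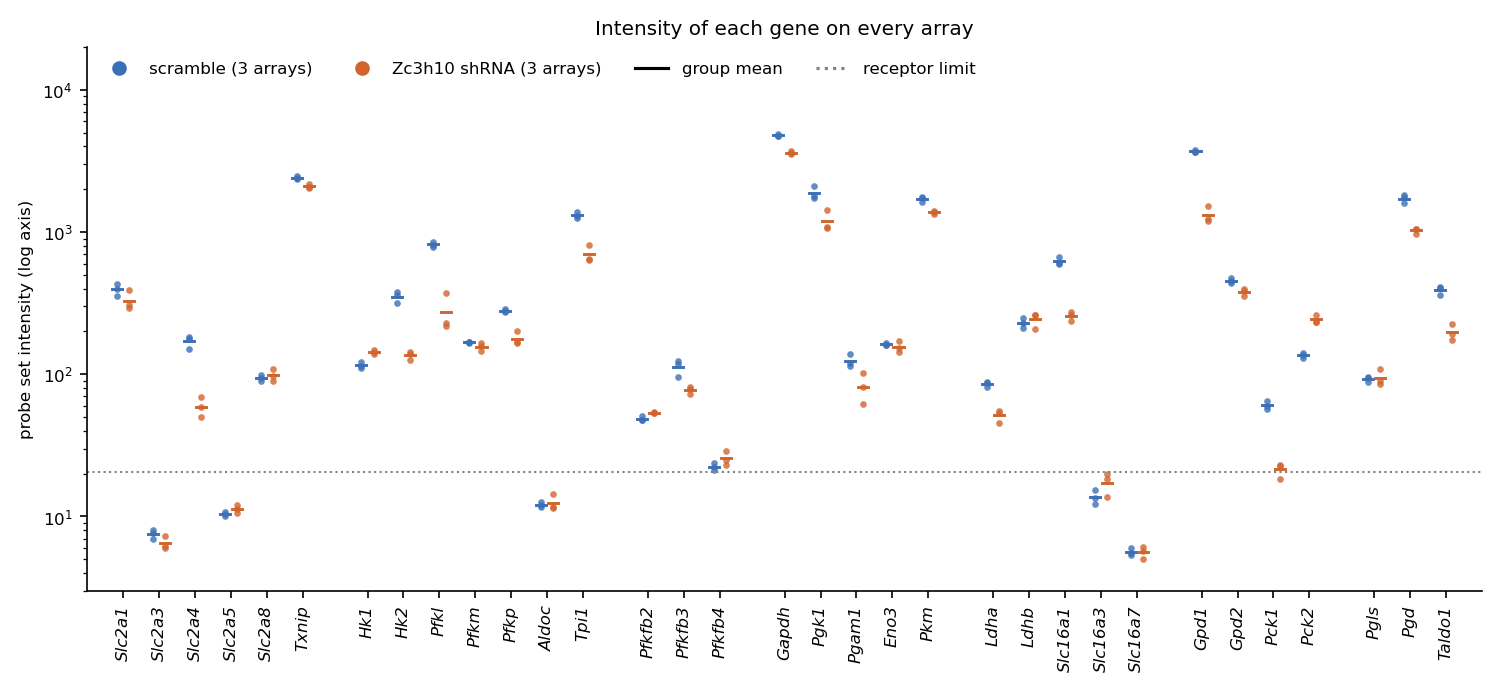
Probe set intensity (log axis) of the 33 measured genes on each of 3 scramble (blue) and 3 Zc3h10 shRNA (orange) arrays, in the order uptake, upper steps, PFKFB enzymes, lower steps, lactate, glycerol phosphate with PEPCK, and pentose phosphate; short bars are group means and the dotted line is the dim limit of 20.5. Slc2a4, Hk2, Pfkl, Slc16a1, Gpd1 and Pck1 show the widest gaps downward on this scale, and Pck2 the clear gap upward.

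At the cell surface the insulin-responsive glucose transporter fell and the basal one did not pass. Slc2a4, which encodes GLUT4, had intensities of 151, 183 and 178 in scramble replicates 1 to 3, and of 68.9, 50.2 and 58.8 in shRNA replicates 1 to 3; all triplets below follow that order. Every shRNA value was below every scramble value, and the change was −1.53 ± 0.14 (2.89-fold lower, adjusted p = 0.000846). Slc2a1, which encodes the basal transporter GLUT1, read 431, 358 and 398 on scramble and 389, 294 and 306 on shRNA arrays. These groups overlapped, and the change of −0.27 ± 0.13 did not pass (adjusted p = 0.293, 95% interval −0.57 to 0.03). Slc2a8, an intracellular hexose transporter, overlapped between groups, at 94.5 ± 4.64 (SD, n = 3) and 98.8 ± 9.53 (SD, n = 3). Slc2a3, the high-affinity neuronal type, and the fructose transporter Slc2a5 stayed under the dim limit in both groups, with changes of −0.22 and 0.11.

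Txnip, an arrestin-like protein that restrains glucose uptake and is induced by glucose, was among the brightest members. It read 2355, 2469 and 2379 on scramble and 2079, 2046 and 2186 on shRNA arrays. The groups did not overlap, yet the change was small, −0.19 ± 0.08, and did not pass (adjusted p = 0.234). The bases just before its start (chr3:96557707-96557956, plus strand, GRCm38.p6, from RefSeq) are shown because Txnip is a known target of carbohydrate response elements. Capitals mark a match to the form CACGNG and CNCGNG with 5 bases between them, whose first base lies 85 bases before the start.
Txnip: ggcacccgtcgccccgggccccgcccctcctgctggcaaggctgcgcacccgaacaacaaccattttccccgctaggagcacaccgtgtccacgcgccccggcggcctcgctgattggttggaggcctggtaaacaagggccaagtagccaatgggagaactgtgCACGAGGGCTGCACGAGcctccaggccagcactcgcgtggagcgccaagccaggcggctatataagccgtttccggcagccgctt
That form was found on either strand in 0.365% of the 32851 promoter windows in the RefSeq table, each covering 250 bases before to 50 after a start, and among the windows of the set only in that of Txnip.

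From hexokinase to the trioses, 4 of 7 measured genes fell. Hexokinase Hk2 read 317, 379 and 361 on scramble and 139, 143 and 126 on shRNA arrays, −1.37 ± 0.10 (2.58-fold lower, adjusted p = 0.000658). Hk1, the more widely expressed hexokinase, read 111, 114 and 121 on scramble and 144, 148 and 140 on shRNA arrays. All shRNA values lay above the scramble values, and the change of 0.32 ± 0.09 was just short of the threshold (adjusted p = 0.0571). Hk1 passed under 6 of 16 alternatives, among them quantile normalization (adjusted p = 0.0418). With any 1 array left out it did not pass (adjusted p of 0.0955 to 0.159).

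The phosphofructokinase subunits differed from each other. Pfkl, the liver-type subunit, had the largest fall of the set, from 857, 786 and 811 on scramble to 370, 229 and 219 on shRNA arrays (−1.63 ± 0.19, 3.09-fold lower, adjusted p = 0.00193). Array 1 of the shRNA group was well above the other two but still below every scramble array. Pfkp, the platelet-type subunit, went from 278, 288 and 274 to 200, 165 and 167 (−0.66 ± 0.10, adjusted p = 0.006). Pfkm, the muscle-type subunit, did not pass, at 169, 167 and 168 on scramble and 167, 145 and 159 on shRNA arrays (−0.10 ± 0.09, adjusted p = 0.6, 95% interval −0.31 to 0.11), although its groups were just apart. The stretch before the most upstream of its 4 RefSeq starts (chr15:98092339-98092588, plus strand, GRCm38.p6) is printed because it holds an E-box, CACGTG, in capitals, as do genes below that fell.
Pfkm: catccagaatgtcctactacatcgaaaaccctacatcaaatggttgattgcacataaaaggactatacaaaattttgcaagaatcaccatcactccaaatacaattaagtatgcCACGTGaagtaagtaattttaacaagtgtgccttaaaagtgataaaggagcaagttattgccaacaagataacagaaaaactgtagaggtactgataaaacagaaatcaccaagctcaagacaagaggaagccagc
An E-box is the site type read by MYC, USF and related factors, and its presence in a window says nothing of use.

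Triose phosphate isomerase, Tpi1, which joins both trioses of the split sugar, fell from 1298, 1374 and 1257 to 805, 637 and 648 (−0.92 ± 0.11, 1.89-fold lower, adjusted p = 0.00238). Aldoc, the brain-type aldolase, stayed under the dim limit. Of the PFKFB enzymes, which set the level of the sugar bisphosphate that activates phosphofructokinase, Pfkfb3 read 96.3, 124 and 119 on scramble and 81.5, 78.6 and 73.2 on shRNA arrays. This was a fall of −0.53 ± 0.12 (adjusted p = 0.026), and the groups did not overlap. The call was lost without scramble replicate 2 (adjusted p = 0.0968) or 3 (0.0911), and without shRNA replicate 1 (0.0518), 2 (0.0748) or 3 (0.0969). Pfkfb2 (0.14 ± 0.08) and Pfkfb4 (0.19 ± 0.11) did not pass.

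From the trioses to pyruvate 2 of 5 measured genes fell, and the changes were smaller. Gapdh, often taken as a constant reference gene, read 4745, 4870 and 4772 on scramble and 3585, 3697 and 3542 on shRNA arrays. The drop was 1.33-fold (−0.41 ± 0.08, adjusted p = 0.0168), with tight groups far apart. Its other probe sets gave −0.40 ± 0.08 and −0.48 ± 0.12 (adjusted p = 0.0200 and 0.0400). Phosphoglycerate kinase, Pgk1, the first step that returns ATP, read 2119, 1742 and 1791 on scramble and 1420, 1086 and 1059 on shRNA arrays (−0.67 ± 0.14, adjusted p = 0.0204). On both sides array 1 was the highest for Pgk1, and the groups did not overlap. Without 1 array the Gapdh call was lost 3 times: without scramble replicate 2 (adjusted p = 0.0669), scramble replicate 3 (0.0593) or shRNA replicate 3 (0.0663). That of Pgk1 was lost without scramble replicate 1, 2 or 3 (0.0649, 0.0508 and 0.0542) or shRNA replicate 2 or 3 (0.0760 and 0.0800).

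Phosphoglycerate mutase and pyruvate kinase came close to the threshold. Pgam1 read 139, 114 and 120 on scramble and 102, 81.9 and 61.6 on shRNA arrays, so that its change of −0.63 ± 0.18 was close in size to that of Pgk1 but had a larger standard error (adjusted p = 0.0718). It passed without shRNA replicate 1 (−0.80, adjusted p = 0.0249). Pkm, which makes pyruvate, read 1746, 1638 and 1773 on scramble and 1401, 1386 and 1330 on shRNA arrays (−0.32 ± 0.09, adjusted p = 0.0517). Its groups stood apart, and it passed under 6 of 16 alternatives, including median centring (adjusted p = 0.0433). With any 1 array left out Pkm did not pass (adjusted p of 0.0901 to 0.155). Eno3, the muscle-type enolase, overlapped between groups, at 162 ± 2.79 and 156 ± 13.7 (SD, n = 3 each). Gapdh, Pgk1, Pgam1, Ldha and Tpi1 have processed pseudogenes in the mouse genome whose sequence can share probes, so their values may mix loci.

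Lactate production and export were each represented by 1 gene that fell beside partners that did not pass. Ldha, the lactate dehydrogenase subunit that favours lactate, read 81.2, 88.3 and 86.2 on scramble and 55.4, 45.6 and 53.7 on shRNA arrays, a fall of −0.73 ± 0.10 (1.66-fold lower, adjusted p = 0.00427). Ldhb, the heart-type subunit, overlapped between groups, with 228, 247 and 211 against 208, 262 and 260 (0.08 ± 0.12, 95% interval −0.19 to 0.36). Slc16a1, the monocarboxylate transporter MCT1, fell from 592, 670 and 609 to 273, 259 and 237 (−1.28 ± 0.10, 2.43-fold lower, adjusted p = 0.000658). Both Ldha and Slc16a1 kept their groups clearly separate. Slc16a3, the lactate exporter MCT4 of glycolytic tissues, and Slc16a7, MCT2, lay under the dim limit in both groups, at 17.3 and 5.63 on average in the shRNA cultures. Bsg, the chaperone that brings MCT1 and MCT4 to the membrane, did not pass (−0.12 ± 0.09, adjusted p = 0.479). Emb, the related chaperone used by MCT2, did not pass either (−0.20 ± 0.12, adjusted p = 0.382) and was named after its value was seen.

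The bases before the most upstream RefSeq starts of this trio are given to set the subunit that fell, the one that did not and the transporter side by side. They come from chr7:46845554-46845803 (plus strand), chr6:142507958-142508207 (minus strand) and chr3:104638414-104638663 (plus strand) of GRCm38.p6, and capitals mark CACGTG and the hypoxia response element core ACGTG on either strand.
Ldha: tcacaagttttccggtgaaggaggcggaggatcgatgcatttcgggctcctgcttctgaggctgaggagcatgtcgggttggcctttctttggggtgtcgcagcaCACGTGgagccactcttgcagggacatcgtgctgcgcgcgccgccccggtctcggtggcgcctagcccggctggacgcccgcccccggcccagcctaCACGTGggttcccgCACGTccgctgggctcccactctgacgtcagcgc
Ldhb: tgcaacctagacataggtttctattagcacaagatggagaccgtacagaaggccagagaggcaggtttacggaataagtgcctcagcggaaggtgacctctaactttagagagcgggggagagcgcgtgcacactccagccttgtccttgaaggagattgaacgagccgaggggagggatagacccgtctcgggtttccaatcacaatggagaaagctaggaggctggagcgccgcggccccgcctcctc
Slc16a1: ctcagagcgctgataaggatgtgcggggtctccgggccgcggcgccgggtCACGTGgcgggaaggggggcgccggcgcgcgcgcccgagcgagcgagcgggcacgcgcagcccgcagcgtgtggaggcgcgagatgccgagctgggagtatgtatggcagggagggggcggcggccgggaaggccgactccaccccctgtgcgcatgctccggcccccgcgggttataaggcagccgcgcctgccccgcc
Ldha shows E-boxes starting 145 and 48 bases before the start and a separate core 34 bases before it, Slc16a1 has an E-box at 200 bases, and Ldhb has neither in this window.

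Over the 35 members in the promoter table, with 54 windows in all, such letters stood near genes that fell and near genes that did not pass. Windows were available for 12 genes that fell and for 16 that did not pass. CACGTG was found near 3 of the 12 that fell, Ldha, Slc16a1 and Pfkfb3. It was also near 2 of the 16 that did not pass, Pfkm and Pfkfb2. That was 9.26% of the members' windows, against 7.15% of all windows. ACGTG, which every CACGTG contains on both strands, was in 38.9% of the members' windows and 19.6% of all. It was near 6 of the 12 genes that fell, 9 of the 16 that did not pass and 2 not analysed here. The GC box GGGCGG was in 59.3% and 35.7% of windows, CCAAT in 38.9% and 37.4%, and the TATA box TATAAA in 3.7% and 13.6%. Windows of 1 gene can overlap, all motifs were searched on both strands, and a match is a description of letters only. Slc2a3, Slc2a4, Slc16a7 and Gpd1 were outside the table.

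The glycerol phosphate branch held some of the strongest changes. Gpd1, the cytosolic enzyme that turns a triose into the glycerol backbone of triglyceride, read 3659, 3665 and 3768 on scramble and 1527, 1229 and 1198 on shRNA arrays (−1.50 ± 0.11, 2.82-fold lower, adjusted p = 0.000658). A dimmer probe set of the gene gave −1.60 ± 0.13. Gpd2, its mitochondrial partner in the glycerol phosphate shuttle, read 437, 476 and 453 on scramble and 354, 399 and 387 on shRNA arrays. The groups were apart, but its change of −0.26 ± 0.09 did not pass (adjusted p = 0.131).

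The phosphoenolpyruvate carboxykinases moved in opposite directions. Pck1, the cytosolic form that supplies glycerol in fat when glucose is scarce, fell from 65.3, 56.8 and 60.1 to 23.1, 18.4 and 22.7 (−1.51 ± 0.12, 2.85-fold lower, adjusted p = 0.00066). The shRNA values of Pck1 lie around the dim limit of 20.5, and with an offset of 32 before log2 its change was −0.80, smaller than those of Tpi1 and Taldo1 (both −0.89) at that setting. Pck2, the mitochondrial form, rose from 137, 131 and 141 to 234, 235 and 260 (0.83 ± 0.09, 1.78-fold higher, adjusted p = 0.00148). No array of either gene crossed into the other group, and both calls held in every alternative run.

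In the pentose phosphate pathway 2 of 3 measured genes fell. Pgd, the second NADPH-yielding dehydrogenase, read 1588, 1807 and 1757 on scramble and 1054, 972 and 1053 on shRNA arrays (−0.74 ± 0.09, 1.67-fold lower, adjusted p = 0.00253). Transaldolase, Taldo1, which returns pentose carbon to glycolysis, went from 358, 410 and 402 to 224, 175 and 192 (−0.99 ± 0.12, 1.99-fold lower, adjusted p = 0.00194). Pgls, the lactonase between the dehydrogenases, overlapped between groups, at 92.2 ± 3.55 and 94.5 ± 12.9 (SD, n = 3 each), with a change of 0.03 ± 0.11 (95% interval −0.23 to 0.29). The pentose isomerases outside the set also fell: Rpe by 0.77 on the log2 scale (adjusted p = 0.00344) and Rpia by 1.07 (adjusted p = 0.00425).

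**Figure D2:**
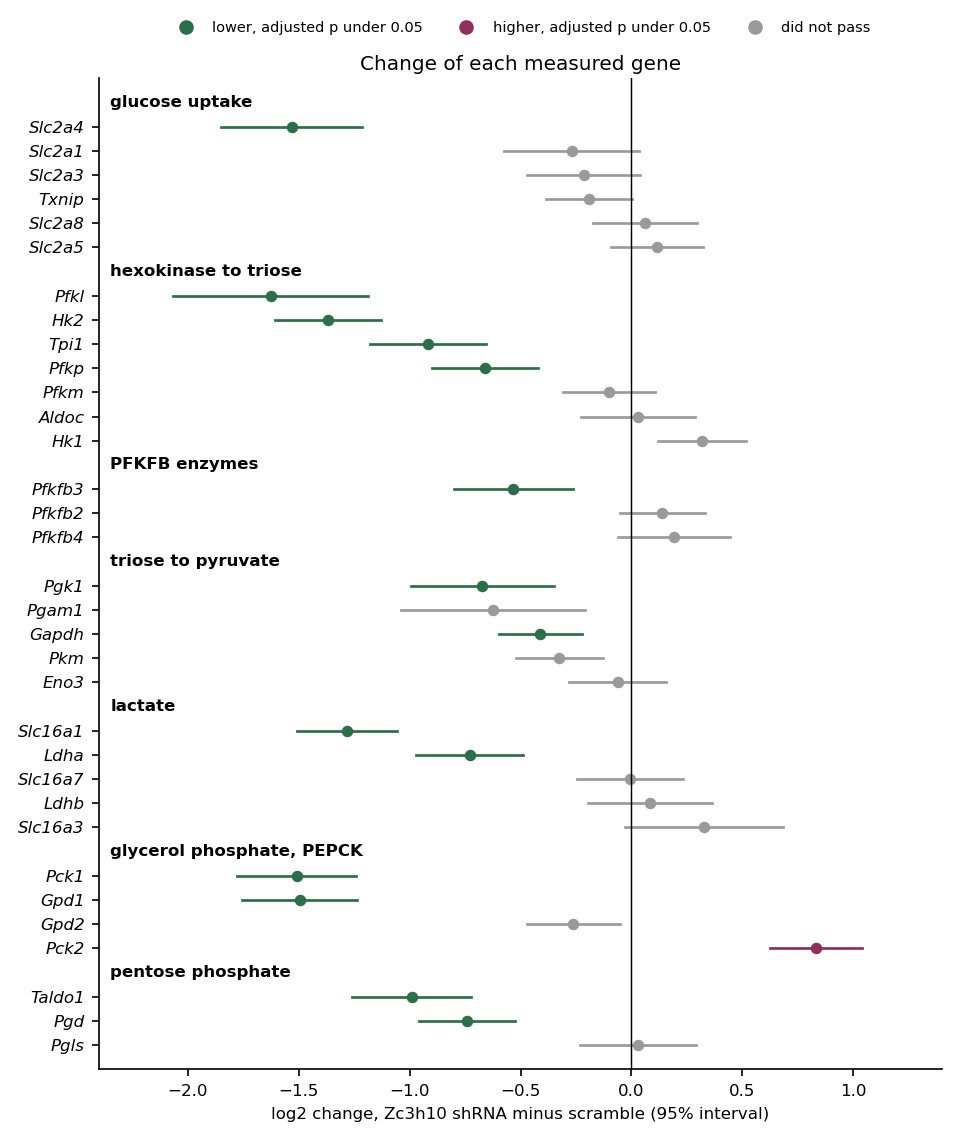
Log2 change (Zc3h10 shRNA minus scramble, 3 arrays each) of the 33 measured genes by step, with the 95% interval of the limma fit; green marks genes that fell, dark red the gene that rose and grey those that did not pass. Pfkl, Slc2a4, Pck1, Gpd1, Hk2 and Slc16a1 lie between −1.63 and −1.28, and Pck2 stands alone to the right at 0.83.

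Whether partners changed unequally was asked from the log2 difference between both genes of a pair on each array, for 10 pairs. Hk2 minus Hk1 was 1.61 ± 0.11 on scramble and −0.08 ± 0.06 on shRNA arrays (SD, n = 3 each), a shift of −1.69 with no overlap. The widest shift of the 10 was that of Pck1 minus Pck2, −2.34, and the others included −1.61 for Slc16a1 minus Slc16a3 and −1.53 for Pfkl minus Pfkm. Shifts were −1.26 for Slc2a4 minus Slc2a1, −1.23 for Gpd1 minus Gpd2, −0.97 for Pfkl minus Pfkp, 0.81 for Ldhb minus Ldha and 1.28 for Slc16a7 minus Slc16a1. Slc16a3 and Slc16a7 lie under the dim limit in both groups, so those pairs set the fall of Slc16a1 against background signal and say nothing of the partner. In these 9 pairs the shRNA arrays lay wholly outside the scramble range. Each of them holds a gene that was called on its own, so separation was likely beforehand and adds no further support. Of single named genes 31.9%, and 49.9% of those above the dim limit, were separated in their own values. No share over other pairs of genes was taken. Slc2a3 minus Slc2a1 overlapped, at a shift of 0.054. Slc2a3 too lies under the dim limit in both groups, so this pair sets Slc2a1 against background signal. Each of the 9 had a two-sided exact permutation p = 0.1, the smallest that 3 against 3 arrays allow (0.111 adjusted over the 10 pairs), so this design cannot pass 0.05. The plain ratio of probe sets shows unequal change only, and pairs share genes.

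**Figure D3:**
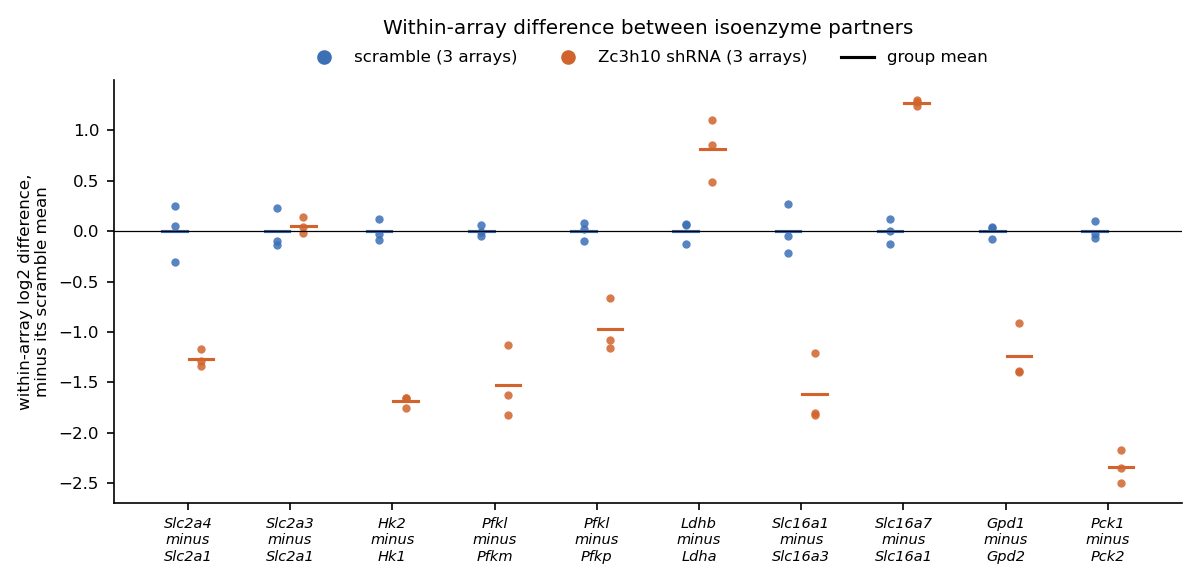
Within-array log2 difference of each isoenzyme pair, with the mean of the 3 scramble arrays set to 0; blue points are scramble and orange points Zc3h10 shRNA arrays, and bars are group means. In 9 of 10 pairs the orange points lie wholly beyond the blue ones, furthest for Pck1 minus Pck2 at −2.34.

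Of 34 other isoenzymes of the route that were measured, 4 fell and 3 rose, with a median change of −0.033. This is 20.6% called, against 12.1% of all named genes and 21.6% of those above the dim limit. The list itself includes genes under that limit. Slc2a13, a proton-coupled inositol transporter of the same family as the glucose transporters, rose from 63.5, 58.3 and 64.3 to 110.0, 108 and 113 (0.83 ± 0.09, adjusted p = 0.00126). Prps2, which passes ribose phosphate on to nucleotide synthesis, rose by 0.63 ± 0.10 (adjusted p = 0.00602). The falls were led by the isomerases Rpe and Rpia already given.

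Many genes around pyruvate and its entry into mitochondria fell. Of 18 measured, 14 fell, with a median of −0.64. This is 77.8% called, against 12.1% of all named genes and 21.6% of those above the dim limit. Dlat, the transacetylase core of pyruvate dehydrogenase, was at −1.26 ± 0.10 (adjusted p = 0.000697). Of the 4 kinases that switch this complex off, Pdk1 fell by 1.55 (adjusted p = 0.00146) and Pdk2 by 1.04 (adjusted p = 0.00147), and Pdk4 was at −0.72 ± 0.11 (adjusted p = 0.00581). Pdk3 lay higher on every shRNA array and did not pass (0.35 ± 0.10, adjusted p = 0.0643). Of the phosphatases that switch the complex on, Pdp2 fell (−1.08 ± 0.15, adjusted p = 0.00391) and Pdp1 did not pass (0.18 ± 0.10, adjusted p = 0.352). The alanine transaminase gene Gpt was at −1.02 ± 0.12 (adjusted p = 0.00201). Pdk3, Pdk4, Pdp1 and Pdp2 were named after their values were seen. The count was 10 without scramble replicate 2 or 3.

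Among 19 measured regulators of the pathway 4 fell, led by the lipogenic factor Srebf1 (−0.90 ± 0.09) and by Mlxipl, the glucose-sensing factor ChREBP. This is 21.1% called, against 12.1% of all named genes and 21.6% of those above the dim limit. Mlxipl read 77.0, 115 and 97.7 on scramble and 38.5, 39.5 and 30.1 on shRNA arrays (−1.41 ± 0.17, adjusted p = 0.00203). Arrdc4, a relative of Txnip, and Tigar, a phosphatase that slows glycolysis, were at −0.37 ± 0.09 and −0.44 ± 0.11 (adjusted p = 0.0329 and 0.0388). With any 1 of the 6 arrays left out, 2 of the 19 passed. Hif1a, the oxygen-sensing factor, and Myc did not pass, at −0.15 ± 0.09 and −0.30 ± 0.11 (adjusted p = 0.423 and 0.156).

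Genes known to be induced by low oxygen, a group that in general includes several glycolytic enzymes, were mostly lower. Of 17 measured, 8 fell and 1 rose, and 15 changes were below zero. The median was −0.51, and −0.28 with an offset of 32 before log2. In this list 52.9% were called, against 12.1% of all named genes and 21.6% of those above the dim limit. Besides Pdk1, which stands in both lists, the mitophagy receptor Bnip3 (−0.99 ± 0.10, adjusted p = 0.00125) and the angiogenic factor Vegfa (−0.59 ± 0.08, adjusted p = 0.00427) were lower. The peptide hormone gene Adm went the other way, from 176, 199.6 and 174 to 440.4, 497 and 430.5 (1.31 ± 0.10, 2.49-fold higher, adjusted p = 0.00066). Without scramble replicate 1 the count of rises was 2.

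Genes of insulin signalling and GLUT4 traffic had no common direction, with 5 lower and 4 higher of 21 measured and a median of 0.017. In this list 42.9% were called, against 12.1% of all named genes and 21.6% of those above the dim limit. Sort1, the sorting receptor that helps build GLUT4 storage vesicles, had the largest fall there, from 583, 618 and 623 to 264, 280.1 and 276 (−1.15 ± 0.08, 2.22-fold lower, adjusted p = 0.000658). Tbc1d4, the Akt substrate that holds GLUT4 back, the kinase subunit gene Pik3r1 and Pdpk1 were at −0.57, −0.51 and −0.49. Counts depended on single arrays: 1 lower without scramble replicate 2, 3 without scramble replicate 3 and 2 without shRNA replicate 2. Of rises, 2 were left when scramble replicate 1 was dropped, and 0 (limma) when scramble replicate 2 or 3 or shRNA replicate 2 or 3 was dropped.

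**Figure D4:**
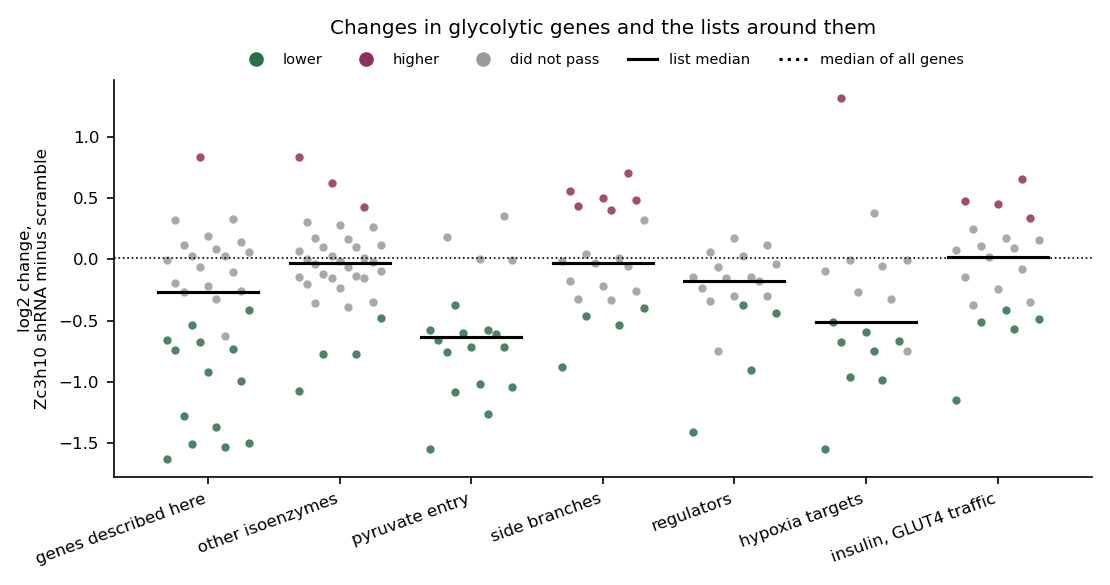
Log2 change (Zc3h10 shRNA minus scramble) of every measured gene in the set and in 6 lists around it; green points fell, dark red points rose and grey points did not pass, bars are list medians and the dotted line is the median of all named genes, 0.013. The list of pyruvate entry sits lowest, at a median of −0.64, and the lists of side branches and of insulin and GLUT4 traffic spread to both sides.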

How the data were processed

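Total RNA of 6 cultures was read on 1 array each, grouped by sample titles, which call the replicates biological. The deposited values are intensities on a linear scale, 1 per probe set. Per the submitters' processing notes, the tools were Affymetrix Expression Console and Partek 6.6, with no role stated; how background and scaling were handled is not stated, and dim probe sets depend on it most. Intensities were turned into log2 without an offset, and all 33079 probe sets were fitted by limma 3.58.1 (R 4.3.3, moderated, two-sided, Benjamini-Hochberg). The procedure was run on simulated data with changes placed only in probe sets at or above the median level. It recovered 38 of 67 changes of 1.5-fold, 65 of 67 of 2-fold and 66 of 66 of 3-fold, with 12 false calls. The simulated noise was normal and independent, with spreads drawn toward the median spread. Far fewer probe sets were changed than were called in the data, so these figures describe the simulation only. The number of arrays limits the precision. Of the probe sets, 23043 carried 1 gene symbol in the platform annotation, 1740 several and 8296 were unnamed here.

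Members and lists were chosen with earlier results of these data known. Values by array are given for members past the threshold with a change of at least 0.5 and for Slc2a1, Slc2a4, Gapdh, Pkm, Ldha, Txnip and Pck1; from each surrounding list up to 4 genes with the smallest p are named, plus Hif1a, Myc, Mlxipl and Bsg. Values by array of Hk1, Pfkm, Pgam1, Ldhb and Gpd2 were added after they were seen. The 16 alternatives were other scalings, an offset of 32, filters on dim probe sets, other variance models, a replicate block, the mean of a gene's probe sets, and each array left out.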

Additional observations from a re-analysis of the deposited data

How the results depend on the processing

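Of the 15 called members, 12 kept their call in all 16 alternatives and none reversed; Pfkfb3, Gapdh and Pgk1 lost it in some. Of the 18 others, 5 (Txnip, Hk1, Pgam1, Pkm and Gpd2) passed in some. The number that fell was 11 to 18 over the alternatives. A second member, Hk1, was called higher with quantile normalization, the offset of 32, the lower quartile of level or all below the median left out, an intensity trend in the prior, or the ordinary t statistic (2 in each). The median of the members was −0.47 with all below the median left out, when fewer members are tested, and −0.34 to −0.28 with 1 array left out. Deviations from the group means correlated at r of 0.084, −0.0046 and 0.043 between same-numbered arrays. Between differently numbered arrays they correlated at −0.093 to 0.061. Such small values do not settle whether the numbers pair the arrays, and the labels do not say. With a replicate block 13 members fell and 1 rose; the block took the calls of Gapdh (adjusted p = 0.0520) and Pfkfb3 (0.0607), gave one to Pgam1 (0.0476), and left 0 rises in the insulin list.

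In the lists around the set, the ordinary t statistic gave 1 fall among other isoenzymes, 3 rises in side branches, 5 falls among hypoxia targets and 2 rises in the insulin list. The offset, either filter and the trend gave 1 rise in pyruvate entry and 2 among hypoxia targets (2 also with quantile normalization), and the offset, the filter at the median and the trend gave 7 falls among regulators. The offset gave 8 falls and median centring 2 rises in the insulin list. With 1 array left out, falls and rises were 1 to 4 and 3 to 4 in side branches and 1 to 5 and 0 to 3 in the insulin list, rises among hypoxia targets were 1 to 2, and regulators had 2 falls each time. The cause was not tested.

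Values near 0 changed sign with 1 array left out: Slc2a8 (−0.012 to 0.125), Aldoc (−0.074 to 0.087), Slc16a7 (−0.068 to 0.068), Pgls (−0.080 to 0.10) and Slc2a3 minus Slc2a1 (−0.012 to 0.171; −0.021 with the mean of probe sets). Signal limits Slc2a3, Slc2a5, Aldoc, Slc16a3 and Slc16a7, which lie under the dim limit in both groups. Zc3h10 stayed uncalled, with an adjusted p of 0.0810 to 0.588 with 1 array left out.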

Other observations

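Among genes of the malate-aspartate shuttle, which carries reducing power of glycolysis into mitochondria, the malate dehydrogenase Mdh1 (−0.46 ± 0.09) and the oxoglutarate carrier Slc25a11 (−0.40 ± 0.08) fell, while the aspartate transaminase Got1 (0.48 ± 0.09) and the aspartate carriers Slc25a12 (0.43 ± 0.11) and Slc25a13 (0.70 ± 0.13) rose. Of 21 measured genes of the side branches, 4 fell and 6 rose. This is 47.6% called, against 12.1% of all named genes and 21.6% of those above the dim limit. Fbp2, a muscle-type fructose bisphosphatase, fell from a mean of 34.8 to one of 19.0 (n = 3 each) (−0.88 ± 0.11, adjusted p = 0.00221), below the dim limit of 20.5 in the shRNA cultures. Pgm2, a gene of the phosphoglucomutase family, rose by 0.56 ± 0.09 (limma, adjusted p = 0.00803). Tkfc, the triose kinase of fructose breakdown, rose by 0.50 ± 0.10 and Gfpt1, the entry enzyme of the hexosamine branch, by 0.40 ± 0.09. Mdh1, Slc25a11, Slc25a12, Tkfc and Gfpt1 were chosen after their values were seen. Falls in this list were 1 without scramble replicate 2, scramble replicate 3 or shRNA replicate 3 and 2 without shRNA replicate 2, and rises were 3 without any 1 of the scramble replicates or shRNA replicate 3.

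On array 1 of the shRNA group 21 of the 33 members had their highest value of that group, against 7 on array 2 and 5 on array 3. On scramble arrays 1 to 3 these numbers were 6, 19 and 8. Array 1 was highest in both groups for 6 members (Slc2a1, Pfkl, Pfkm, Pgk1, Pgam1 and Pck1), array 2 for 5 (Hk2, Gapdh, Ldhb, Gpd2 and Pgls) and array 3 for 2 (Aldoc and Pck2). Of the hypoxia targets array 1 was highest in both groups for 8 of 17, among them Ndrg1, P4ha1, Egln3 and Pdk1, array 2 for 3 and array 3 for 0.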
